A study of Cavia porcellus with 18 samples.

Results

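Transcripts of the guinea pig (Cavia porcellus) hippocampus were ordered by a score for RNA polymerase II, and the DNA methylation of CG sites was followed along them from upstream of the transcription start site into the transcribed region. The members were chosen by that score: all transcripts of the deposited CG site table were placed in 5 steps, score 0 and the quartiles of the scores above 0, with each site counted once per transcript. A site is a single C position, so both strands of a CG can count as separate sites. Of 239204 pairs of a site and a transcript in the table, 213950 lay between about 10 kb upstream and 100000 bases downstream of the start site, and they belonged to 20064 of 20111 transcripts. The tissue came from 3 wild type males, all 12 weeks old. The values rest on libraries of these animals: 3 of chromatin precipitated with an antibody against H3K4me1 and then treated with bisulfite (ChIP-bisulfite), 3 of RNA polymerase II ChIP-seq, and reduced representation bisulfite sequencing (RRBS), with 3 libraries read at 50 and 3 at 100 bases. Peaks of H3K4me1 were deposited as well. Every deposited value pools the animals. No spread between animals could be computed and no test was run, and errors below are standard errors with the 302 scaffolds as clusters, which cover variation along the genome and not between animals. Hippocampal cell types are mixed in every library, so a level can reflect the same state in all cells or different states in different cells.

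RNA polymerase II carries a long repeated tail whose phosphorylation changes through the transcription cycle. Phosphorylation on serine 5 (PS5) is placed at initiation and marks polymerase close to start sites, although it can also be detected along genes. CG-rich promoters are mostly kept free of DNA methylation in mammalian tissues, while the bodies of transcribed genes are usually methylated. H3K4me1, monomethylated lysine 4 of histone H3, is found at enhancers and beside promoters, and all 167387 CG sites of the table lay in H3K4me1 peaks. Start sites without H3K4me1 nearby are therefore not represented.

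The score was not a measure of the start site alone. In 7202 of the 7396 transcripts with a score (97.4%), it equalled, within 6e-06, the mean score of consecutive deposited Pol II PS5 peaks, beginning with the first peak centred no more than 1000 bases upstream of the start. Some of these matches may be coincidental, since 87.96% of the peaks share their score with another peak. The run held a single peak in 63.6% of these transcripts (80.5% in the highest quartile of scores) and up to 21 peaks in the others. Its first peak lay entirely farther than 1000 bases downstream of the start in 49.4% of them.

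The list of Pol II PS5 peaks mixes 2 forms of score, and the steps separate them in part. Scores with at most 2 decimals belonged to 8033 of 67423 peaks and had a median of 6.93, while scores with more decimals had a median of 3.25. Among transcripts, 1808 carried a score with at most 2 decimals, and 84.3% of these had a Pol II PS5 peak within 1000 bases of the start site (a start peak). The other 5588 scored transcripts had a start peak in 40.1% of cases. What distinguishes the forms is not given in the sources used here. The form of a transcript score need not be that of its peaks, since a mean over several peaks can have more decimals than each of them. In quartile 3, 39.7% of transcripts had a start peak with at most 2 decimals, while 19.6% had such a score.

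Score 0 held 12715 transcripts and the quartiles held 1849, 1916, 1782 and 1849. Scores ran from 2.11 to 3.10 in quartile 1, from 3.10 to 3.63 in quartile 2, from 3.63 to 5.27 in quartile 3 and from 5.27 to 45.71 in quartile 4. On either side of the last limit the nearest scores were 5.26878 and 5.27, and at the other limits they were 3.1026 and 3.10452, and 3.6333 and 3.63358. A start peak was present in 3.33% of the transcripts of score 0 and in 32.3%, 35.2%, 54.9% and 81.8% of those in quartiles 1 to 4. Scores with at most 2 decimals made up 78.7% of quartile 4, 19.6% of quartile 3 and 0.104% of quartile 2. The farthest site listed for a transcript lay at a median of 8647 bases from the start in score 0, at 35908 bases in quartile 2 and at 16185 bases in quartile 4, so the scored transcripts also had sites farther away.

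At the start site, methylation was lower at each higher step of the score. Within 1000 bases on either side, the RRBS level, as a mean of transcript means, was 42.98% in score 0 (SE 0.682, SD 36.2 over 4060 transcripts). It was 36.2% in quartile 1 (SE 1.26, 753 transcripts), 33.05% in quartile 2 (SE 1.44, 754), 25.6% in quartile 3 (SE 1.09, 786) and 20.9% in quartile 4 (SE 0.861, SD 28.0 over 982). Quartile 4 was below score 0 by -22.1 percentage points (95% interval -23.9 to -20.3), and the difference had the same sign in all 20 of the scaffolds with the most transcripts. ChIP-bisulfite gave the same order, from 38.4% in score 0 (SE 0.688) through 31.3%, 28.4% and 23.6% to 19.7% in quartile 4 (SE 0.931), a difference of -18.7 points (-20.6 to -16.7). The first pair of neighbouring quartiles overlapped within its error: quartile 2 differed from quartile 1 by -3.10 points in RRBS (-6.76 to 0.561) and by -2.89 points in ChIP-bisulfite (-6.73 to 0.952). Each later step was lower than the one before it in both assays. Transcripts entered this window only where a shared site lay in it, which was 31.9% of score 0 and 53.1% of quartile 4, with a median of 2 sites each. Those 2 sites can be the strands of a single CG.

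**Figure D1:**
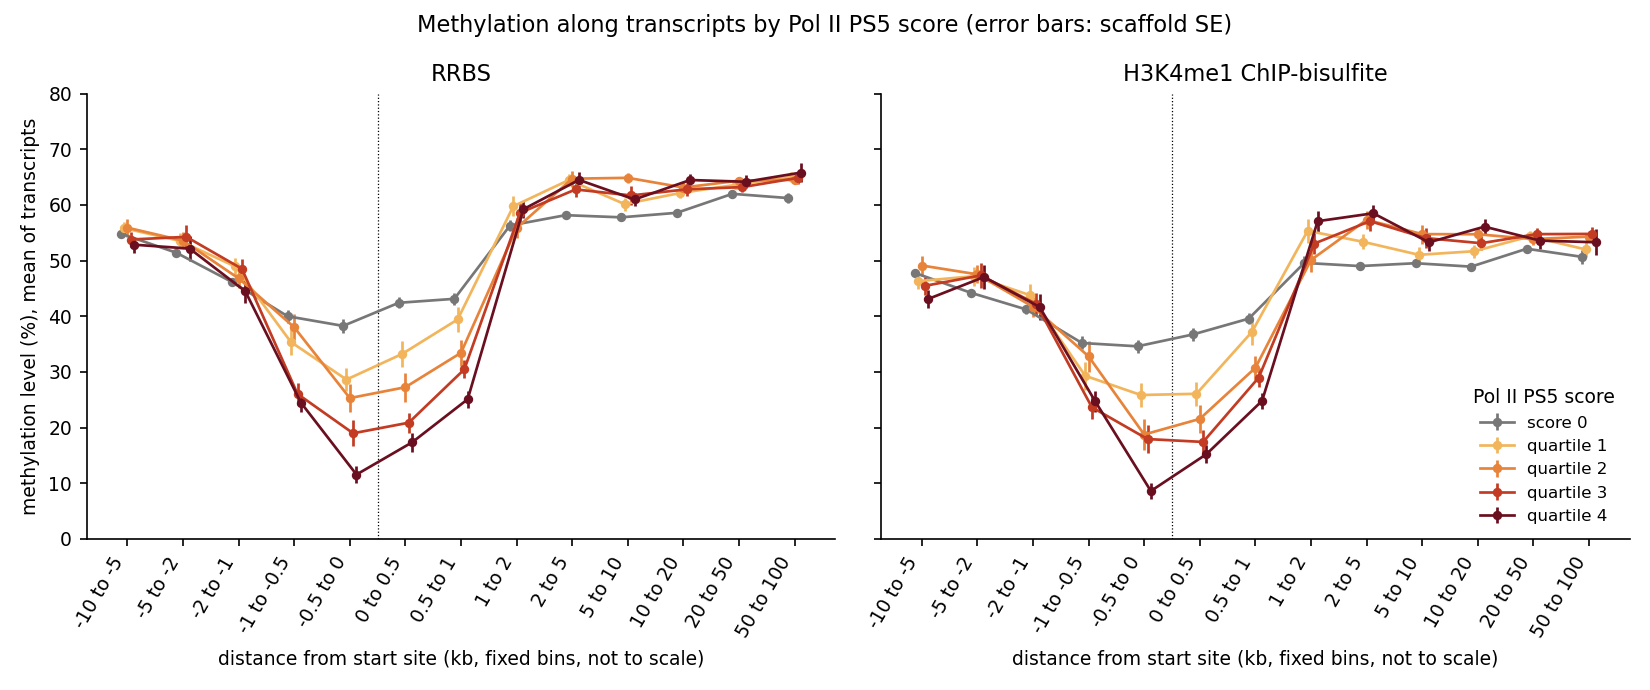
Methylation level in percent (vertical axis, mean of transcript means) in 13 fixed bins of distance from the start site in kilobases (horizontal axis, not to scale), for the 5 score steps, in RRBS (left) and ChIP-bisulfite (right). Error bars are scaffold SEs. The steps separate within 1000 bases of the start, from 38.3% in score 0 to 11.6% in quartile 4 just upstream of it in RRBS, and lie close together elsewhere.

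In RRBS, the 95% interval of quartile 4 minus score 0 lay below 0 in the 4 bins within 1000 bases of the start and in none of the other 9. Between -500 and -1 bases, the step of score 0 stood at 38.3% in RRBS (SE 1.21, 1317 transcripts) and quartile 4 at 11.6% (SE 1.55, 265 transcripts), which puts quartile 4 lower by -26.7 points (95% interval -30.2 to -23.2). From 0 to 499 bases score 0 had 42.4% and quartile 4 had 17.4%, and between 500 and 999 bases they had 43.1% and 25.1%. The order had turned at the next bin. Between 1000 and 1999 bases quartile 4 was at 59.2% and score 0 at 56.3% in RRBS, with a difference of 2.92 points whose interval held 0 (-0.164 to 6.001). In ChIP-bisulfite quartile 4 was already higher there, by 7.48 points (3.91 to 11.1). Upstream, between -2000 and -1001 bases, the difference was -1.67 points in RRBS (-5.97 to 2.63). One bin apart from the start also lay below 0 in ChIP-bisulfite: in the bin farthest upstream, which ends at -5001 bases, quartile 4 was lower by -4.65 points (-8.04 to -1.25), while RRBS differed by -1.998 points (-4.75 to 0.749).

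With finer bins of 250 bases, the lowest bin was lower at each higher step, and in RRBS more bins were under 30%. The lowest bins lay at different positions. They held 88 to 171 transcripts in the quartiles and 850 in score 0, and neighbouring quartiles were not compared by interval. In RRBS the lowest bin of score 0 was at 36.03% (SE 1.37), and no bin within 3000 bases of the start was under 30%. In quartile 1 the lowest bin was at 27.8% (SE 2.53), and 2 of 24 bins, not adjacent, were under 30%, which is 500 bases together. Quartile 2 reached 21.5% (SE 3.03), and its bins under 30% added up to 1000 bases, interrupted between 0 and 249 bases at 33.8%. Quartile 3 reached 17.1% (SE 3.41) with 1500 bases under 30%. Quartile 4 reached 11.8% between -250 and -1 bases (SE 2.64) and was under 30% over 1750 bases. ChIP-bisulfite had its lowest bins at 32.2% in score 0 and 8.996% in quartile 4. Its bins under 30% added up to 1750 bases in both quartile 3 and quartile 4. Its bins under 40% added up to 2250 bases in score 0, 2000 in quartile 1 and 2500 in quartiles 2 to 4. In score 0 and quartiles 3 and 4 these sums include a bin farther upstream that was apart from the others.

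**Figure D2:**
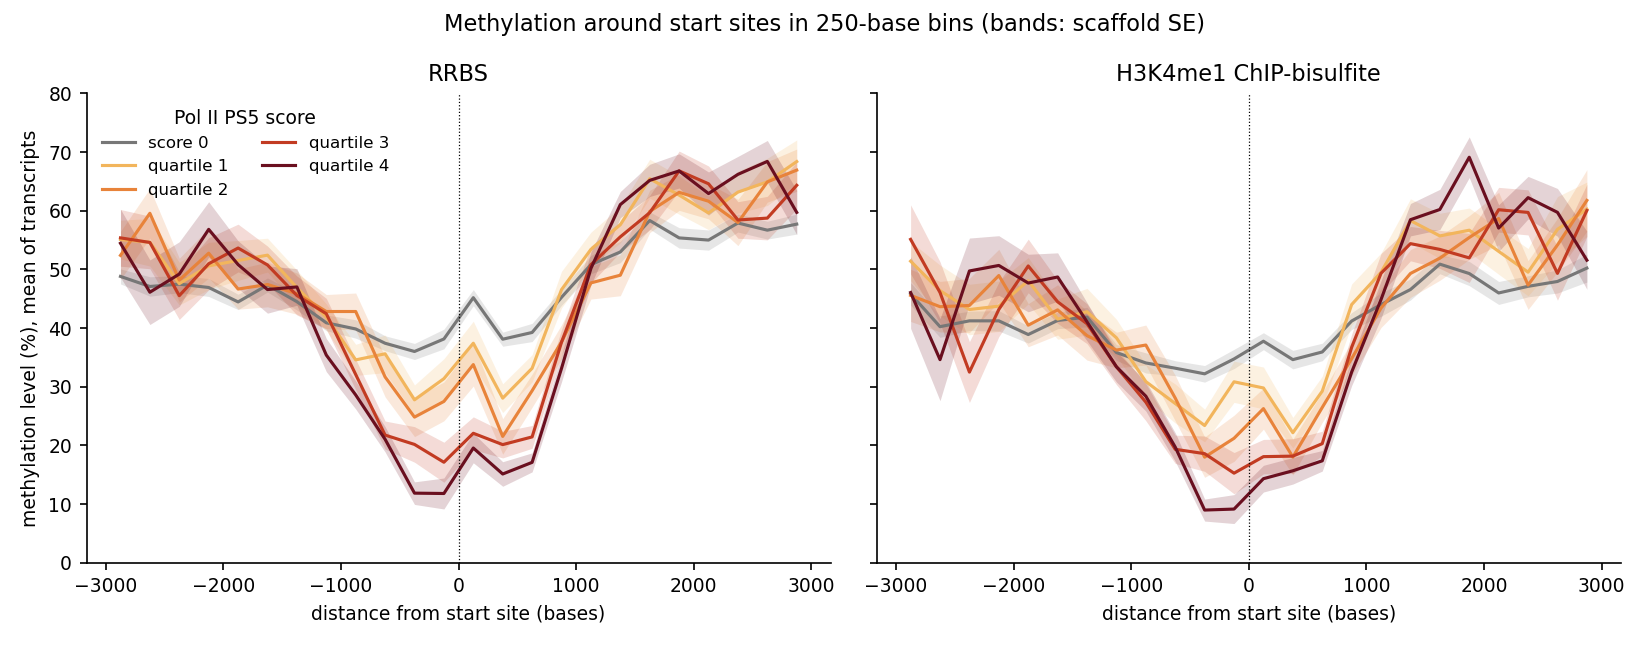
Methylation level in percent (vertical axis, mean of transcript means) in bins of 250 bases within 3000 bases of the start site (horizontal axis), by score step, in RRBS (left) and ChIP-bisulfite (right), with bands of 1 scaffold SE. The lowest bin goes from 36.03% in score 0 to 11.8% in quartile 4 in RRBS.

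Higher steps held more transcripts with a mean start level of at most 20% and fewer with one of at least 80%, over a median of 2 sites. A start level of at most 20% was found in 38.3% of score 0 in RRBS and in 46.9%, 50.3%, 58.8% and 65.3% of those in quartiles 1 to 4. Start sites at or over 80% made up 23.1%, 16.5%, 15.6%, 9.03% and 7.03%. In ChIP-bisulfite the low class held 47.6% of score 0 and 69.9% of quartile 4, and the high class held 24.3% and 9.78%. The median transcript of score 0 stood at 38.5% in RRBS and that of quartile 4 at 8%, with a middle range in quartile 4 from 0% to 32.8%. The steps overlapped widely: 69 transcripts of quartile 4 had a start at or over 80% in RRBS, and 1553 transcripts of score 0 had one at or under 20%.

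**Figure D3:**
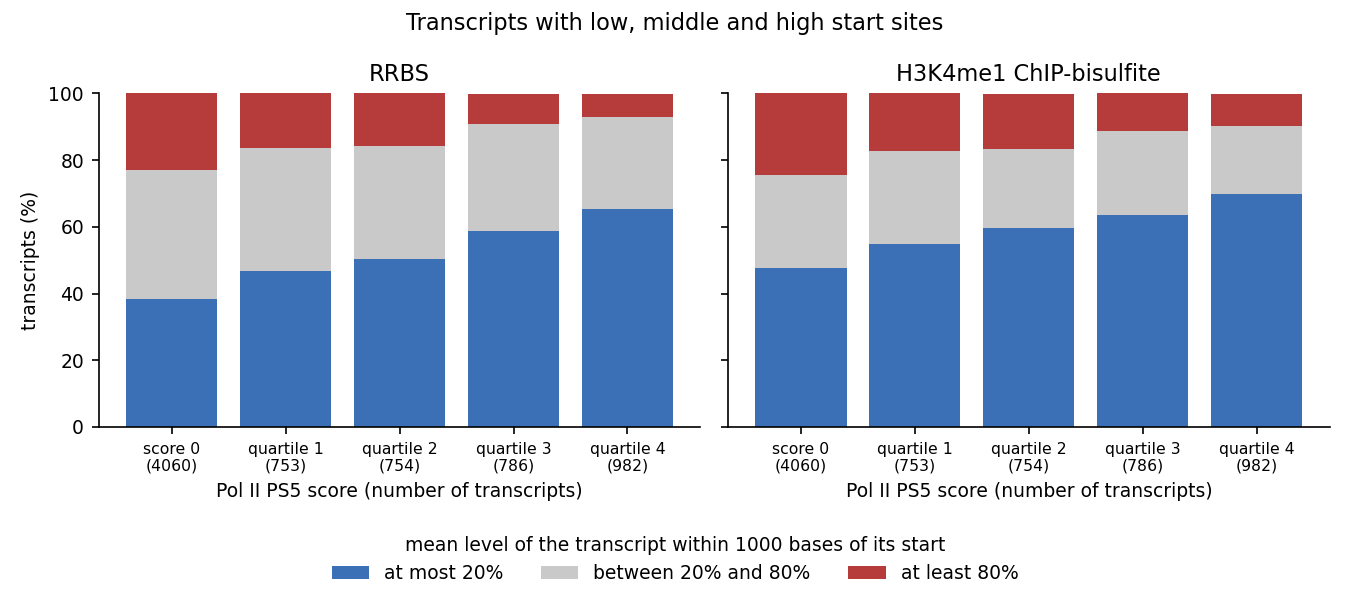
Share of transcripts in percent (vertical axis) whose mean level within 1000 bases of the start is at most 20%, between 20% and 80%, or at least 80%, for each score step (horizontal axis, with the number of transcripts), in RRBS (left) and ChIP-bisulfite (right). The share of low starts goes from 38.3% in score 0 to 65.3% in quartile 4 in RRBS.

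Downstream of the start the relation was of another kind, with one difference between transcripts without and with a score and no further order among the quartiles in RRBS. Between 2000 and 100000 bases, the RRBS level was 57.1% in score 0 (SE 0.549, 9587 transcripts) and 60.7%, 62.0%, 61.3% and 61.5% in quartiles 1 to 4 (SE 0.613 to 0.870). Quartile 1 was already higher than score 0 by 3.64 points (95% interval 2.54 to 4.75) and quartile 4 by 4.41 points (2.98 to 5.83). Quartile 4 differed from quartile 1 by 0.763 points (-0.789 to 2.31). In ChIP-bisulfite the levels were 47.9% in score 0 and 50.8%, 52.7%, 53.0% and 53.4% in the quartiles. There quartile 4 was above score 0 by 5.47 points (3.66 to 7.27) and above quartile 1 by 2.57 points (0.724 to 4.41). The difference from score 0 in RRBS was positive in 17 of the 20 scaffolds with the most transcripts, and in ChIP-bisulfite in 14 of 20. Within tertiles of C density, defined below, the RRBS difference from score 0 averaged 2.21 points (0.684 to 3.74). It was 3.15 points in tertile 1 (1.51 to 4.79), 1.62 in tertile 2 (-0.973 to 4.21) and 1.91 in tertile 3 (-1.35 to 5.17), and the last 2 intervals held 0. Pairs in this window lay at a median of 10635 bases from the start in score 0. In quartiles 1 to 4 the median was 25089, 31076, 25468.5 and 18546 bases, so the steps sampled different distances. Between 2000 and 4999 bases quartile 4 was at 64.5% and score 0 at 58.1% in RRBS, a difference of 6.34 points (3.83 to 8.84). This was the largest of the downstream bins. Between 20000 and 49999 bases the difference was 2.17 points in RRBS (-0.247 to 4.59) and 1.46 in ChIP-bisulfite (-1.28 to 4.19), and both intervals held 0. The other downstream bins had RRBS intervals above 0. In ChIP-bisulfite the interval also held 0 between 50000 and 100000 bases, at 2.63 points (-2.40 to 7.67). Sites here were not shown to lie inside the transcript, since transcript ends were not given in the files.

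As a description across transcripts with a score, Spearman's rho between score and RRBS level was -0.182 at the start (3275 transcripts) and 0.0214 downstream (6492 transcripts). For ChIP-bisulfite it was -0.138 and 0.0309. These transcripts share libraries, animals and base composition, and rho is weak in each case.

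Compared within the same transcript, the contrast between start and downstream region was larger at each higher step. Among 3020 transcripts of score 0 with sites in both windows, the downstream level exceeded the start level by a mean of 12.0 points in RRBS (SE 0.787, SD 42.8). The excess was 21.4 points in quartile 1 (SE 1.42), 27.3 in quartile 2 (SE 1.93), 34.4 in quartile 3 (SE 1.80) and 38.7 in quartile 4 (SE 1.74, 749 transcripts). It was positive in 59.1% of the transcripts of score 0 and in 81.04% of those in quartile 4. ChIP-bisulfite gave 7.99 points in score 0 (SE 0.886) and 32.5 in quartile 4 (SE 1.75).

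Farther upstream no step differed from score 0 by more than its 95% interval. Between about 10 kb and 2000 bases upstream, RRBS averaged 52.9% in score 0 (SE 0.539) and 52.5% in quartile 4 (SE 1.32), a difference of -0.426 points (95% interval -2.84 to 1.99). ChIP-bisulfite averaged 45.5% and 44.7%, a difference of -0.791 points (-3.38 to 1.80). Among 20 scaffolds, quartile 4 was lower in 11 in RRBS and in 14 in ChIP-bisulfite.

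Among the 5 steps, the assays were closest to each other at the starts of quartile 4. ChIP-bisulfite minus RRBS at the same sites averaged -4.59 points in score 0 within 1000 bases of the start (SE 0.478), -4.88 and -4.67 in quartiles 1 and 2, -2.01 in quartile 3 (SE 0.828) and -1.16 in quartile 4 (SE 0.751). Quartile 4 differed from score 0 by 3.42 points (95% interval 1.73 to 5.11). With pairs of a site and a transcript counted equally inside classes of similar RRBS level, this difference turned in sign, to -0.986 points (-2.41 to 0.441). That setting changed the weights as well as holding the RRBS level. Inside the start peak classes described next the difference was -0.784 points (SE 2.08). With a start peak, ChIP-bisulfite minus RRBS averaged 0.993 points in score 0, -4.31 in quartile 1 and -0.637 in quartile 4. Without one it averaged -4.97 in score 0 and -5.51 in quartile 4. Downstream the gap was -9.16 points in score 0 and -8.10 in quartile 4, and these differed by 1.06 points (-0.466 to 2.59). Inside classes of similar RRBS level, with pairs counted equally, the downstream difference was 1.72 points (0.839 to 2.59). With the top tertile of scores in place of quartile 4 it was 1.402 (0.206 to 2.60). Both intervals lay above 0, but the first treats the classes as independent.

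A Pol II PS5 peak at the start itself went with most of the difference between steps. Among scored transcripts, the RRBS level at the start was 20.8% over 2120 with a start peak and 42.1% over 1155 without one, a difference of -21.4 points (95% interval -24.2 to -18.5). In ChIP-bisulfite the levels were 19.4% and 36.1%. Without a start peak, quartile 4 stood at 40.8% in RRBS (SE 3.38, 106 transcripts), quartile 1 at 44.6% (SE 2.03) and score 0 at 44.3% (SE 0.718). Quartile 4 then differed from score 0 by -3.47 points, with an interval that held 0 (-10.1 to 3.14). With a start peak, levels were 24.9% in quartile 1 (SE 1.52), 23.03% in quartile 2, 20.5% in quartile 3 and 18.5% in quartile 4 (SE 0.839, 876 transcripts). Here quartile 4 was below quartile 1 by -6.49 points in RRBS (-9.62 to -3.36) and by -2.81 points in ChIP-bisulfite (-6.55 to 0.922). It was below score 0 with a start peak by -5.48 points in RRBS (-9.18 to -1.79) and by -7.11 points in ChIP-bisulfite (-11.2 to -3.02), and both intervals excluded 0. Averaged over both classes, quartile 4 differed from score 0 by -3.93 points in RRBS (SE 2.65) and by -4.71 in ChIP-bisulfite (SE 2.60), against -22.1 and -18.7 without this division. Classes were weighted by their transcripts of both steps together, so the class without a start peak, with 3796 transcripts of score 0, weighed most. The start peak and the score come from the same libraries, so their parts cannot be told apart.

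Transcripts of score 0 with a start peak had low start sites too. They numbered 264 with sites at the start, and stood at 23.9% in RRBS (SE 1.90) and 24.9% in ChIP-bisulfite (SE 1.98), against 44.3% and 39.3% for those of score 0 without such a peak. Of all 423 transcripts of score 0 with a start peak, 286 (67.6%) had their start within 2000 bases of the start of a scored transcript. For those without a start peak this was 2.17%.

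**Figure D4:**
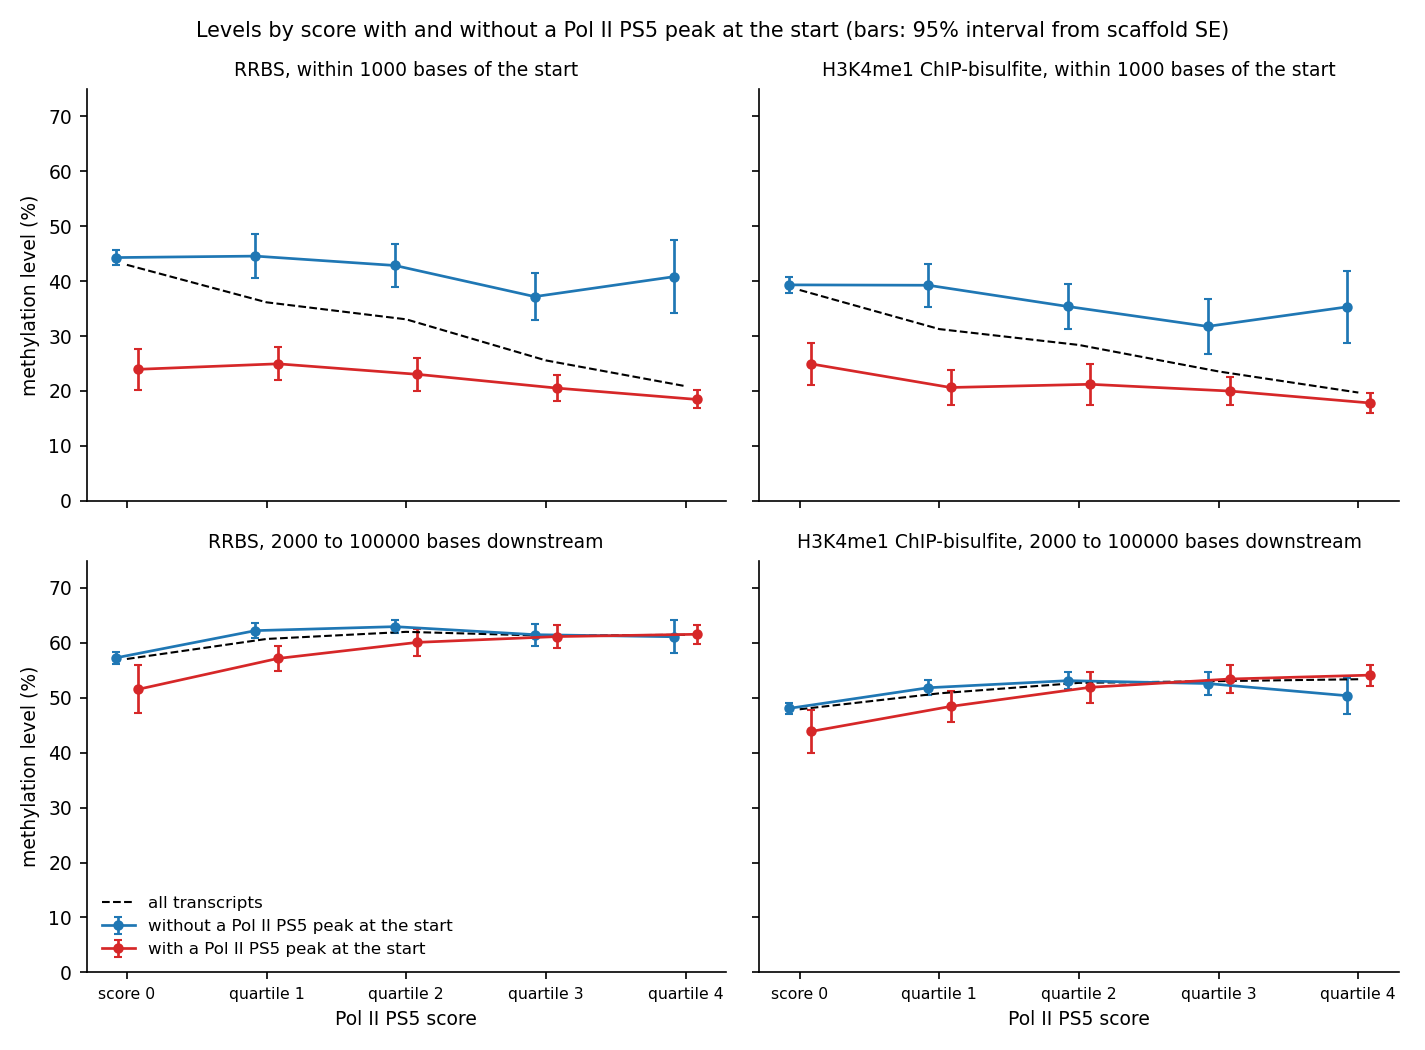
Methylation level in percent (vertical axis, mean of transcript means with 95% intervals from scaffold SEs) for each score step (horizontal axis), for transcripts with (red) and without (blue) a Pol II PS5 peak within 1000 bases of the start, at the start (top) and downstream (bottom). The dashed line holds all transcripts. At the start in RRBS the red points lie between 18.5% and 24.9% and the blue points between 37.2% and 44.6%.

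Downstream, the quartiles were ordered in RRBS among transcripts with a start peak. With a start peak the RRBS level was 51.5% in score 0 (SE 2.22), 57.2% in quartile 1 (SE 1.19), 60.1% in quartile 2 (SE 1.24), 61.2% in quartile 3 (SE 1.09) and 61.6% in quartile 4 (SE 0.887). Quartile 4 was above quartile 1 by 4.41 points (95% interval 1.91 to 6.91) in RRBS and by 5.70 points (2.97 to 8.43) in ChIP-bisulfite. Without a start peak the RRBS levels of the quartiles lay between 61.1% and 62.96%, and quartile 4 differed from quartile 1 by -1.11 points (-3.90 to 1.67).

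In RRBS the order also appeared inside each form of the transcript score, with tertiles formed separately. The class with more decimals can include means over peaks with at most 2 decimals, so order inside a form of peak was not shown. For scores with at most 2 decimals, the RRBS level at the start was 25.1% (SE 1.61), 23.1% (SE 1.48) and 18.3% (SE 1.29) from tertile 1 to tertile 3. For scores with more decimals it was 36.01% (SE 1.25), 33.1% (SE 1.45) and 24.0% (SE 1.07), and the share of transcripts with a start peak went from 43.1% over 49.5% to 68.5%. ChIP-bisulfite at the start was not ordered for at most 2 decimals, with 21.01%, 21.5% and 18.4%, and went from 31.3% over 28.4% to 22.9% for more decimals. Downstream, levels in RRBS were 53.1%, 59.9% and 62.0% for at most 2 decimals and 60.7%, 62.0% and 64.3% for more decimals. RRBS levels downstream were thus ordered by score inside each form of the transcript score, while those of the pooled quartiles were not.

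The difference at the start was larger where C positions were sparser in the surrounding H3K4me1 peak. Transcripts were divided into tertiles by a count of C positions that the authors deposited for each of those peaks, taken per 1000 bases. Which C positions it counts is not stated, so density here means only this deposited count. At the start it ran from 3.63 to 257 per 1000 bases over transcripts. In tertile 1, at most 32.0 per 1000 bases, RRBS went from 59.5% in score 0 (SE 1.05, 1405 transcripts) through 51.9%, 42.0% and 31.7% to 23.4% in quartile 4 (SE 1.75, 303 transcripts). This is a difference of -36.1 points (95% interval -39.6 to -32.6). In tertile 2 the levels were 44.9% and 20.2%, a difference of -24.7 points. In tertile 3, at least 56.6 per 1000 bases, score 0 was already at 25.4% (SE 1.11) and quartile 4 at 18.9% (SE 1.60), a difference of -6.57 points (-9.80 to -3.34). The differences of tertiles 1 and 3 were themselves apart by -29.5 points (-34.6 to -24.5) in RRBS and by -27.1 points (-32.4 to -21.7) in ChIP-bisulfite. In tertile 1, starts with a Pol II PS5 peak stood at 22.97% in RRBS (SE 1.23, 669 transcripts) and those without at 59.9% (SE 0.896, 1775 transcripts). In tertile 3 they stood at 19.99% and 25.8%. Mean levels at starts with a peak thus varied little with density, from 19.99% to 22.97%. Downstream the differences of tertiles 1 and 3 were apart by 1.24 points in RRBS (-2.52 to 5.01).

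**Figure D5:**
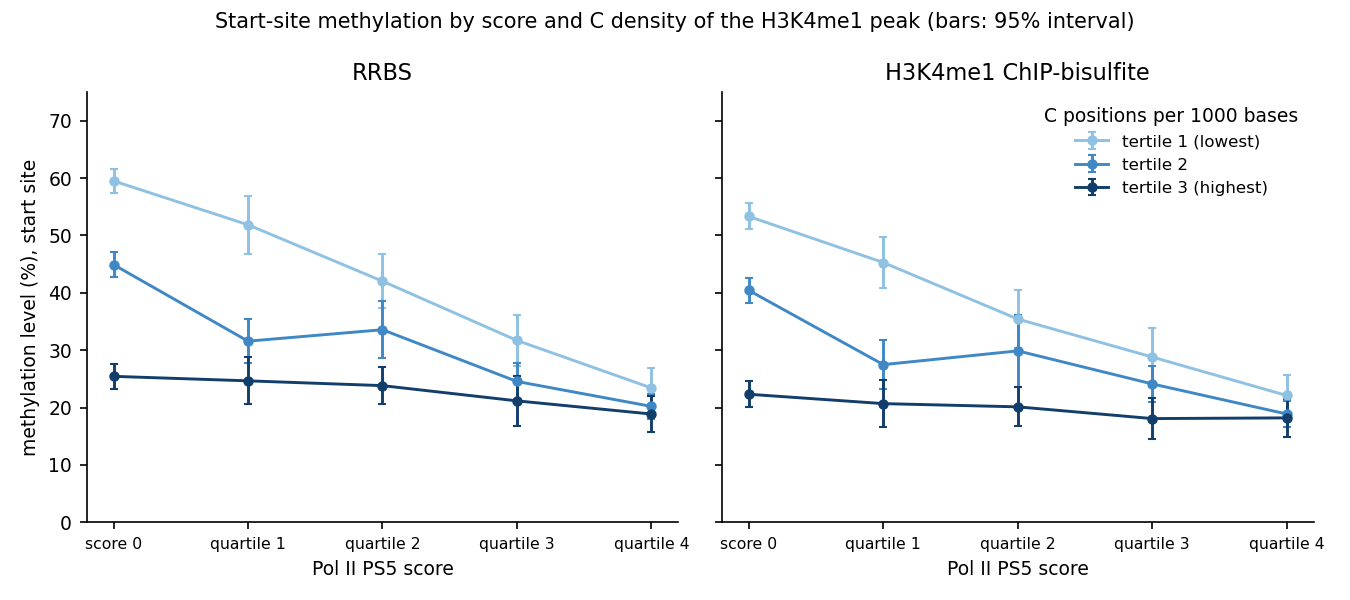
Methylation level in percent within 1000 bases of the start (vertical axis, mean of transcript means with 95% intervals from scaffold SEs) for each score step (horizontal axis), in tertiles of C positions per 1000 bases of the H3K4me1 peaks, in RRBS (left) and ChIP-bisulfite (right). In RRBS the tertiles are far apart in score 0, from 59.5% to 25.4%, and close together in quartile 4, from 23.4% to 18.9%.

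Other properties of the steps were compared at the start. The median C density was 44.5 per 1000 bases in score 0 and 41.8 in quartile 4. Median RRBS reads per site lay between 17 and 19 in all 5 steps. The median width of the H3K4me1 peaks was 5937 bases in score 0, 6950, 6477 and 6601 in quartiles 1 to 3 and 5850.5 in quartile 4. Pairs whose site also lay near the start of another transcript made up 18.6% of score 0 and 7.81% of quartile 4. Sites inside Pol II PS5 peaks made up 3.70% of the pairs in score 0 and 17.1% in quartile 4. With all sites inside Pol II PS5 peaks left out, quartile 4 still differed from score 0 by -19.8 points in RRBS (SE 1.01) and by -16.4 in ChIP-bisulfite (SE 1.09).

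Sites that the authors list as differentially methylated between the assays were fewer at the starts of highly scored transcripts. Of all shared sites, 10.2% are listed as lower in ChIP-bisulfite and 2.93% as higher. Within 1000 bases of the start, 641 of 12575 sites of score 0 (5.10%) were listed as lower, against 84 of 3474 sites of quartile 4 (2.42%). Every site listed as lower was at 70% or more in RRBS, and among all sites at that level the shares were 22.3% in score 0 and 21.99% in quartile 4. Among sites at or under 30% in RRBS, 4.69% of score 0 and 2.62% of quartile 4 were listed as higher. Downstream, 10.4% of the sites of score 0 and 10.8% of those of quartile 4 were listed as lower, close to the share over all sites.

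Single transcripts show the range behind these means. Only Ensembl identifiers are given in the files, and these were not paired with gene names. In quartile 4, transcript ENSCPOT00000028158 (start at position 38485138 of scaffold_4, score 9.55, with a start peak) had 9 sites between -690 and 857 bases, each at 0% in both assays and covered by 10 to 23 RRBS reads. Its 7 sites downstream averaged 79.3% in RRBS and 70.9% in ChIP-bisulfite. The opposite case in the same step was ENSCPOT00000021815 (start at position 2839471 of scaffold_30, score 5.74, with a start peak). Its 4 sites from -873 to -855 bases lay in pairs of adjacent positions, which are the strands of the same CG. They were at 98% to 100% in RRBS and at 100% in ChIP-bisulfite. The fifth, at -590 bases, was at 64% and 10%. Among transcripts of score 0, ENSCPOT00000000126 (start at position 3875342 of scaffold_105) had 5 sites between -158 and -72 bases at 0% in both assays, with 13 to 19 reads. ENSCPOT00000024190 (start at position 11446420 of scaffold_23) had 6 sites between 474 and 487 bases, also in pairs of adjacent positions. They were at 89% to 100% in RRBS and at 55% to 100% in ChIP-bisulfite.

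With at least 5 sites at the start, 84 of 230 transcripts of quartile 4 (36.5%) and 298 of 839 of score 0 (35.5%) had a mean RRBS level of at most 5%. In ChIP-bisulfite these shares were 45.65% and 44.5%, so nearly unmethylated starts were about as frequent in both steps among transcripts with this many sites. Means of at least 80% were found in 3 of quartile 4 and in 32 of score 0. Over transcripts with at least 3 sites, the difference between quartile 4 and score 0 was -12.5 points in RRBS (SE 1.08) and -10.6 in ChIP-bisulfite (SE 1.07). With each site counted equally it was -12.1 (SE 1.35) and -10.2 (SE 1.38). Both settings gave a difference smaller by over 1.5 times with the same sign. Within tertiles of the site number, averaged with their sizes, it was -21.4 (SE 1.05) and -17.9 (SE 1.17).

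Genes with several start sites allow a comparison inside a gene. In 17 genes, start sites more than 2000 bases apart carried different scores and both had shared sites; the lower score was 0 in each. The higher-scored start averaged 29.4% in RRBS and the lower-scored one 53.9%, a mean difference of -24.5 points (SE 10.1, SD 43.6), with a lower level at the higher-scored start in 12 genes and a higher one in 4. In ChIP-bisulfite the mean difference was -28.9 points (SE 9.45), with 11 genes lower and 5 higher.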

How the data were processed

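The members and divisions were chosen with earlier results of these data known. Methylation of CG sites was deposited by the authors as whole percent, 1 value per assay for all animals. The Pol II PS5 score per transcript and the peak scores were deposited by the authors as scores of unstated scale. RRBS reads per C position, with a minimum of 10, and C positions per H3K4me1 peak were deposited as counts. Tools listed without role or order, per the submitters' processing notes, are Bismark 0.12.5, BSMAP 2.74, methylKit, HOMER 4.6, MACS2, SAMtools 1.1 and Bowtie2 2.2.3. The build is not given in the sources used here, and positions are printed as in the files.

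Of 241970 lines, 2766 repeated a site of the same transcript and were dropped, which leaves 20111 transcripts of 19244 genes. Levels were averaged per transcript and window, and then over transcripts (Python 3.11.15, pandas 2.3.3, numpy 2.4.6). SEs use scaffolds as clusters, and 95% intervals are 1.96 SE wide on either side. Where classes or tertiles were averaged, their SEs were combined as if independent, although the same scaffolds occur in several of them. The clustered means and differences were tested on simulated data, with normally distributed values over scaffolds of similar size. Averages over classes, rho and values piled up at 0% were not covered by it. Median RRBS depth was 17 reads per site, and intervals do not cover the error of single sites. Depth of ChIP-bisulfite per site is unknown. Identifiers could not be matched to gene symbols, so the planned gene lists and cell type markers were not used here. The rule for named transcripts took, per step, the 3 with the most sites at the start, those of quartile 4 and score 0 with at least 5 such sites and the highest or lowest mean of both assays, and those of quartile 4 with the largest difference from start to downstream. Because identifiers alone were at hand, 1 of each extreme is printed, and 1 by the site number. Alternatives covered weights, windows, coverage, site numbers, score steps, scaffolds and neighbouring start sites. Those on start peaks, C density, the form of the score and scaffold_927 were chosen after seeing the data.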

Additional observations from a re-analysis of the deposited data

How the results depend on the processing

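Differences are quartile 4 minus score 0 in percentage points. For each form of the score, the top tertile of the scores of that form takes the place of quartile 4. A value counts as moved where it left the 95% interval of the reported value. That interval is from scaffold SEs for differences, and from the number of transcripts for rho. Counts of bins have no interval and were judged by their ratio to the reported count. Of the values under alternatives, 149 stayed the same, the counts of bins included, and 46 moved. The sign differed in 3 of 112 values where the reported interval excluded 0, and in 19 of 78 where it held 0 (the downstream gap, downstream RRBS rho and upstream values). At the start, RRBS (-22.1) became -19.3 with at least 20 reads, -12.5 with at least 3 sites, -12.1 with every site equal, -26.6 in a window of 500 bases and -19.8 without sites in Pol II PS5 peaks. ChIP-bisulfite (-18.7) became -14.7, -10.6, -10.2, -24.2 and -16.4 under the same settings. Among alternatives chosen after seeing the data, the top tertile of scores with 3 or more decimals gave -19.0 and -15.5. That of scores with at most 2 decimals gave -24.6 in RRBS. Start peak classes gave -3.93 and -4.71, both with intervals that held 0. In the class with a start peak alone, the differences were -5.48 (-9.18 to -1.79) and -7.11 (-11.2 to -3.02). Without a start peak they were -3.47 and -4.01, with intervals that held 0. The gap at the start (3.42) turned to -0.986 within RRBS level classes, with pairs of a site and a transcript counted equally, and to -0.784 within start peak classes.

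Spearman's rho at the start in RRBS (-0.182) was -0.233 with score 0 included, -0.112 with at least 3 sites, -0.0908 with every site equal and -0.117 for at most 2 decimals. In ChIP-bisulfite (-0.138) it was -0.188, -0.103, -0.0820 and -0.0858, and -0.178 in the narrower window. Downstream rho in RRBS (0.0214) was 0.0632 with score 0 included, 0.0462 with each site once, -0.0225 with every site equal, 0.0734 for more decimals and 0.155 for at most 2. In ChIP-bisulfite (0.0309) it was 0.0763, 0.0585, -0.00541, 0.0708 and 0.106.

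The downstream difference in RRBS (4.41) was 6.58 with at least 3 sites, 5.90 with every site equal, 7.24 for more decimals and 2.21 within C density tertiles. In ChIP-bisulfite (5.47) it was 7.496 for more decimals, 3.63 within density tertiles and 3.43 within start peak classes, where the gap was -1.28. Upstream, every site equal gave 2.25 in RRBS and 2.67 in ChIP-bisulfite, more decimals gave 2.38 in RRBS, and the narrower window gave -4.65 in ChIP-bisulfite and -2.65 for the gap. The causes were not tested. The count of RRBS bins with quartile 4 under score 0 was 6 of 13 under all 8 alternatives run for it. No paired analysis was possible because the deposited values pool the animals, and for the same reason no animal could be left out.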

Other observations

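A single short scaffold held the transcripts with the most sites. On scaffold_927, 9 transcripts accounted for 1692 of the 25346 pairs of a site and a transcript within 1000 bases of a start (6.68%). One of them, in quartile 3, had 322 sites at its start, with a mean of 24.2% in RRBS and 11.9% in ChIP-bisulfite and a median of 207.5 RRBS reads per site. These pairs rest on 798 distinct sites, since start windows on this scaffold overlap.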
